A study of Mus musculus with 6 samples.

Results

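The comparison of iPV cells at day 7 with iPV cells at day 3 covered 2 of the 6 arrays of the series and 22180 genes. iPV cells are mouse embryonic fibroblasts (MEF) that were infected with adenovirus to turn them into parvalbumin neurons, the fast-spiking inhibitory interneurons of the brain. The day 7 array held total RNA of such cells after 7 days of induction, and the day 3 array held RNA of cells after 3 days. Levels on the MEF array and on the array of unsorted iPV cells at day 14 are given beside them for some genes and lists. Higher at day 7 means higher than at day 3, and not necessarily higher than in MEF. Arrays of sorted day 14 cells and of a sample labelled as endogenous parvalbumin neurons enter only where all 6 arrays are named. All samples were labelled C57BL/6, PV-GFP transgenic and 13.5 day embryos. In PV-GFP mice a transgene marks parvalbumin cells with green fluorescent protein. The labels gave the same text on culture and infection for all 6, MEF included, and named no virus cargo. Sorting for fluorescence was mentioned for 1 of the day 14 samples and for neither of the compared samples.

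Values were log2 intensities. Each gene was represented by the probe set that matched 1 gene symbol and had the highest mean over the 6 arrays. A floor was set at 5.01, where the median of the probe sets without controls lay, and lower values were raised to this floor. A gene counted as measured when it exceeded this floor on at least 1 of the 2 arrays, which held for 13443 genes. A fold against a value under the floor is a lower bound and is written "at least". Each group had 1 array, so no difference has a replicate check, no p-value was computed, and every statement describes this pair of arrays. The only measure of error came from genes with several probe sets, whose differences varied with a standard deviation of 0.33 log2 units over 380 genes. For 19 of these genes the 2 probe sets compared differed by at least 1 log2 unit, the size of a 2-fold call. Only probe sets above the floor on both arrays entered, so calls against the floor are not covered. This technical spread leaves out variation between cultures.

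Many genes of cell division and sterol synthesis and some of secreted defence proteins were higher at day 7 than at day 3 by 2-fold or more, and many chaperones of the endoplasmic reticulum (ER) were lower. Collagen chains had a positive median difference, but most were within 2-fold. At day 7, 288 genes (1.3% of all) exceeded their day 3 level by 2-fold or more and 117 (0.528%) lay below it by as much, in either direction 1.83%. Among measured genes alone these shares were 2.14% and 0.87%, together 3.01%. The counts past 2-fold in the lists below are to be read beside these shares. The median difference over measured genes was 0.004 log2 units. Large differences lay mostly on the higher side, with 63 genes at least 3-fold higher and 10 lower, and 4 genes at least 8-fold higher and 0 lower. Of the 288 higher genes, 24 were set against the floor at day 3, and 11 of the 117 lower genes were at the floor at day 7. Housekeeping centring set equal the median level of the housekeeping genes, which was 8.91 at day 7 and 8.73 at day 3. It shifted the median of measured genes to -0.16 and turned the split to 181 higher and 250 lower. The median difference of the housekeeping genes themselves was -0.01 as reported and -0.19 after this centring. The centring thus moved their own differences away from equality, and which scaling is right was not tested. Every list described below as higher or lower is therefore to be read against the shift of this centring.

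**Figure D1:**
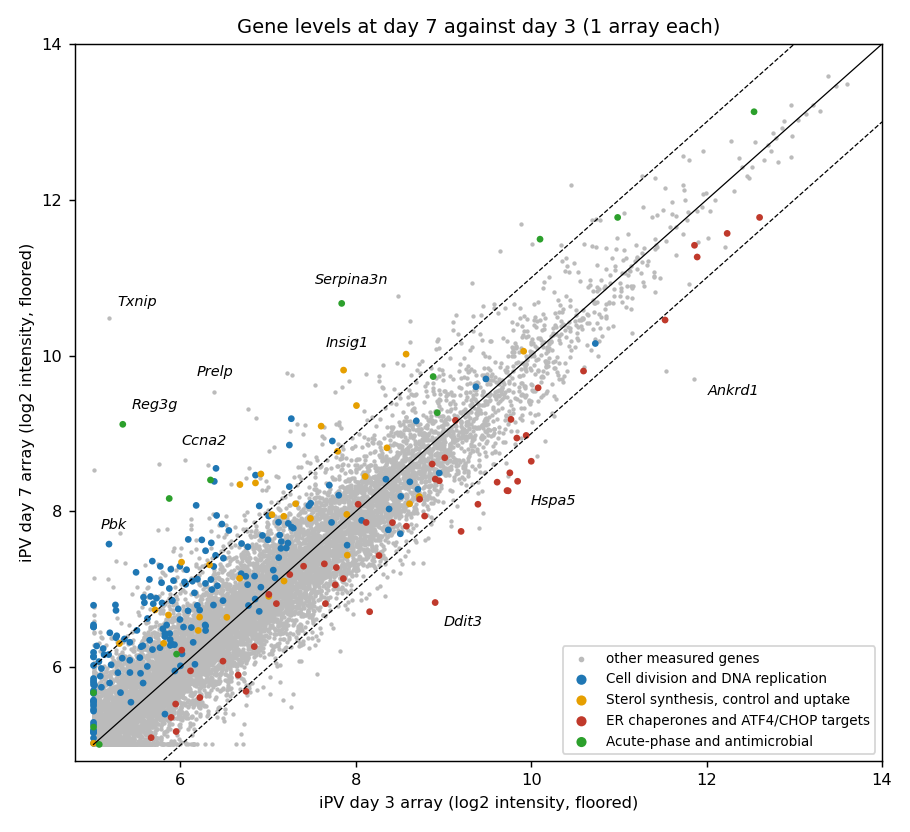
Log2 intensity of each measured gene at day 7 (vertical axis) against day 3 (horizontal axis), 1 array each, with lower values raised to 5.01. The solid line marks equal levels and the dashed lines mark 2-fold. Of 184 cell division and replication genes 171 lie above the diagonal and 55 above the upper dashed line, most ER chaperone and ATF4/CHOP genes lie below the diagonal, and Txnip (10.48 at day 7 and 5.19 at day 3) stands farthest from it.

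The induced cells on both arrays carried fibroblast genes and few markers of the neuron they are named for. All 12 fibroblast markers were measured, and their summed linear intensity was 35176 at day 7 and 25869 at day 3. Of 6 GABAergic markers on the array only Gad1 and Dlx2 were measured, with Dlx2 at 5.76 at day 7 and 5.82 at day 3. Gad2, Slc32a1, Dlx5 and Dlx6 were under the floor on both arrays. Of 8 parvalbumin interneuron markers 4 were measured, between 5.34 and 6.16 at day 7 and between 5.02 and 5.91 at day 3. Of 10 pan-neuronal markers 8 were measured, 7 with a positive difference and 1 with a negative one, and 0 were 2-fold different. The summed linear intensity of the 10 was 738 at day 7, 546 at day 3 and 583 in MEF. The name iPV is used here for the induction the cells went through. The GABAergic and parvalbumin markers do not show that neuron in these samples. In such bulk samples, fewer cells of a type and less RNA per cell cannot be told apart.

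Dividing cells switch on a large shared programme in the S, G2 and M phases of the cell cycle. Cyclins activate kinases, licensed origins fire, cohesin and condensin shape the chromosomes, and kinetochores attach them to the spindle before the anaphase-promoting complex releases the sister chromatids. Many genes of the later phases carry a cell-cycle homology region near their start, a motif bound by the DREAM and MuvB complexes, often beside CCAAT boxes bound by NF-Y. Promoters of 3 of these genes are printed here because they show this pair of motifs close to the start. Each sequence runs 5′ to 3′ on the gene's strand from 250 bases before to 50 after the start, from RefSeq on GRCm38.p6. Capitals mark CCAAT boxes and homology regions.
Ccnb2 (chr9:70421505-70421804, minus strand): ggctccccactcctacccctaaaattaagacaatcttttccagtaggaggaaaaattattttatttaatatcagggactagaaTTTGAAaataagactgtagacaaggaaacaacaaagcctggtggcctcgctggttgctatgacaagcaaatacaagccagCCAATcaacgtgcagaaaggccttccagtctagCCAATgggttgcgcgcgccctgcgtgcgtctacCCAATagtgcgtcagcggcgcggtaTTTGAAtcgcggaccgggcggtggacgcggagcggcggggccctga
Plk1 (chr7:122159185-122159484, plus strand): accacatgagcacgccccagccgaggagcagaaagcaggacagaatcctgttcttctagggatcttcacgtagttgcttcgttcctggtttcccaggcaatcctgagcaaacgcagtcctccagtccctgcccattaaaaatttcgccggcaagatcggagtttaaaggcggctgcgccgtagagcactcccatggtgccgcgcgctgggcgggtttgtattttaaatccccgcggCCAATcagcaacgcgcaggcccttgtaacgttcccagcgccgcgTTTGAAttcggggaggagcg
Cdc20 (chr4:118437294-118437593, minus strand): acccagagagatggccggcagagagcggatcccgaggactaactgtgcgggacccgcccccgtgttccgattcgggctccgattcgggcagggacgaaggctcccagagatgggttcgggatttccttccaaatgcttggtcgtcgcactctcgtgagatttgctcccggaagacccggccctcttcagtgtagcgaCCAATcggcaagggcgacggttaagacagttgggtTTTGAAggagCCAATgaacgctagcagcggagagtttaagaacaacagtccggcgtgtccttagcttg

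In Ccnb2, 3 CCAAT boxes begin at -87, -54 and -21 and a homology region lies at 5 to 10 after the start, with another at -167 to -162. Plk1 has a CCAAT box at -14 to -10 and a homology region at 31 to 36. In Cdc20 a homology region at -18 to -13 lies between CCAAT boxes that begin at -53 and -8. The homology region was searched as TTTGAA or TTCGAA on both strands, and 57 of 93 cell division genes with a promoter in the table held it (61.3%), against 13.4% of 10428 measured genes and 19.4% of all 27025 promoters. CCAAT was present in 63.4% of cell division promoters and 38.3% of those of measured genes. E2F sites (TTTGGCGC, TTTCGCGC or TTCCCGCC) were in 31.1% of 61 DNA replication promoters, 10.8% of cell division promoters and 5.4% of those of measured genes. The 57 cell division genes with a homology region had a median log2 difference of 1.0, and 29 of them reached 2-fold at day 7. The 36 without had a median of 0.56 and 8 higher. Those without include Ccnd3, Cdk4, Cdk6 and Smc3, so the groups differ in more than the motif, and its part in the difference was not tested. For CCAAT the medians were 0.94 over 59 cell division genes with a match and 0.65 over 34 without. For E2F sites the order was the other way, with medians of 0.41 over 19 replication genes with a match and 0.53 over 42 without. A match is a string of letters and no proof of binding.

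**Figure D2:**
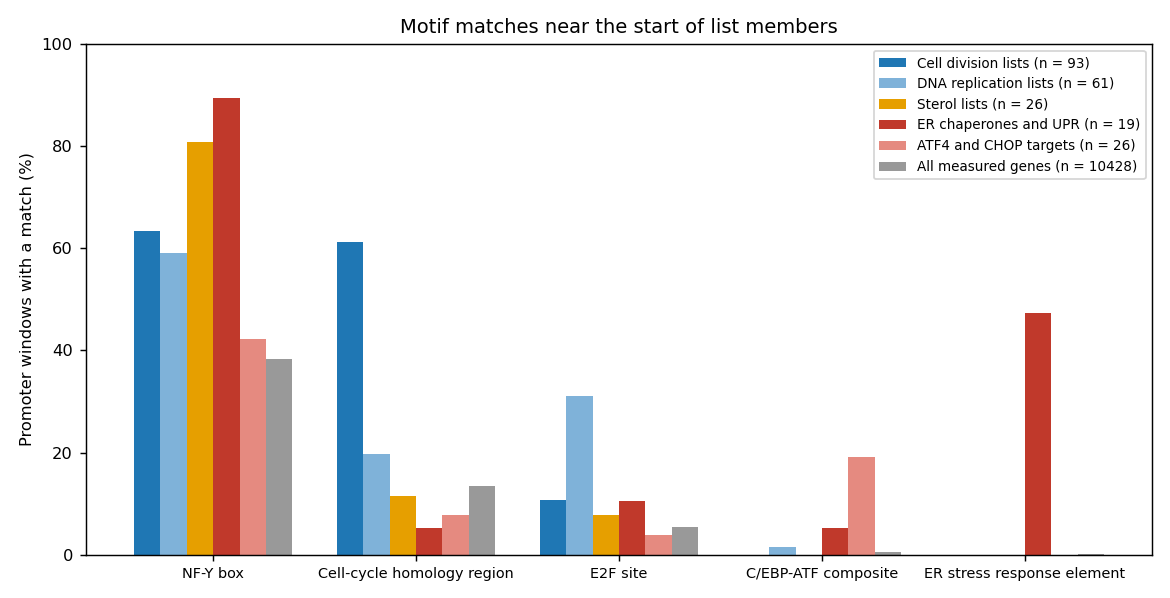
Share of promoter windows (percent, vertical axis) with at least 1 match to each of 5 motifs, for 5 groups of measured list members and for all measured genes (grey), with the number of windows in the legend. The NF-Y box is the CCAAT motif. The cell-cycle homology region stands out in cell division lists (61.3%), the E2F site in replication lists (31.1%) and the ER stress response element in ER chaperones (47.4%).

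Of 113 measured cell division genes, 42 were higher at day 7 by 2-fold or more, 0 were lower by as much, and 105 had a positive difference. Ccna2, the cyclin of S phase and G2, had 8.55 at day 7 and 6.41 at day 3 and was 4.43-fold higher. Cks2, a small subunit of cyclin-dependent kinases, had 8.39 at day 7 and 6.39 at day 3, and Ccnb2, a mitotic cyclin, had 7.5 and was 2.31-fold above its 6.29 at day 3. Their partner Cdk1, the kinase that drives entry into mitosis, was 2.25-fold higher, at 8.07 at day 7 and 6.90 at day 3. Of the D-type cyclins of G1, Ccnd2 had 10.16 at day 7 and 10.73 at day 3 and Ccnd1 had 8.38 and 8.62, both lower within 2-fold, while Ccnd3 had 7.70 at day 7 and 7.13 at day 3. Over 16 cyclins, kinases and their modifiers the median difference was 0.42 and 4 members were 2-fold higher, or 3 after housekeeping centring.

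Kinases and ubiquitin ligases that run mitosis showed some of the highest list values, with a median of 0.96 and 11 of 24 members past 2-fold, or 7 after housekeeping centring. All 24 had a positive difference. Pbk, a mitotic kinase, had 7.58 at day 7 and 5.19 at day 3 and was 5.26-fold higher. Plk1, which controls centrosomes and mitotic exit, had 7.95 at day 7 and 6.41 at day 3. Aurkb, the kinase of the chromosomal passenger complex, was 2.88-fold higher with 7.30 at day 7 and 5.77 at day 3. Bub1, a spindle checkpoint kinase, had 6.54 at day 7 and was under the floor at day 3, at least 2.89-fold higher. Cdc20, the activator of the anaphase-promoting complex, had 6.89 at day 7 and 5.73 at day 3. Fzr1, its other activator, had 7.15 at day 7 and 7.08 at day 3.

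Spindle motors and microtubule proteins had the highest median of the cell division lists, 1.01. Past 2-fold were 15 of 28 members, or 11 after housekeeping centring. Kif2c, which removes tubulin from microtubule ends at the centromere, had 7.22 at day 7 and 5.49 at day 3, and Kif11, which slides the spindle poles apart, had 7.36 and 5.68. Hmmr, a spindle assembly protein, had 6.80 at day 7 and lay under the floor at day 3, at least 3.44-fold higher. Ckap5, a microtubule polymerase also used outside mitosis, was the only one of these 28 with a negative difference, at 8.19 at day 7 and 8.51 at day 3. Kinetochore genes had a median of 0.70, where 8 of 25 passed 2-fold and all 25 were positive. After housekeeping centring 6 of 24 passed it. Nuf2, part of the complex that grips microtubules, had 8.08 at day 7 and 6.18 at day 3 and was 3.73-fold higher, and Cenpa, the histone variant of centromeres, had 7.01 and 5.87.

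Of 20 genes of cohesin, condensin and chromosome structure 4 passed 2-fold upward and 16 had a positive difference, with a median of 0.68. H2ax, a histone variant that marks DNA breaks, had 9.19 at day 7 and 7.26 at day 3 and was 3.80-fold higher. Top2a, which untangles chromosomes, had 8.47 at day 7 and 6.86 at day 3, and the proliferation antigen gene Mki67 had 8.85 and 7.24, both 3.05-fold higher. The cohesin core genes Smc1a and Smc3 were lower within 2-fold, with Smc1a at 7.76 at day 7 and 8.37 at day 3 and Smc3 at 8.49 and 8.95, while Rad21, the cohesin subunit cut at anaphase, had 9.16 at day 7 and 8.69 at day 3. Histone cluster genes were present as 11 measured members, and 3 of them passed 2-fold upward. Among them H2ac10 had 9.62 at day 7 and 7.53 at day 3. These genes are near-identical copies, so the value of any member is uncertain.

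DNA replication genes were also higher, with smaller differences. Of 71 measured genes 13 passed 2-fold, all upward, and the median was 0.52. Mcm3, a subunit of the replicative helicase, had 7.10 at day 7 and 6.05 at day 3, and Cdc7, the kinase that fires origins, had 6.38 and 5.27. The origin list had 3 of 23 past 2-fold, and 1 after housekeeping centring. All 31 genes of the fork and nucleotide supply had a positive difference, 9 of them past 2-fold. That count was 3 after housekeeping centring and 7 when the probe sets of a gene were averaged. Rrm1 and Rrm2, the subunits of ribonucleotide reductase, had 8.90 and 7.60 at day 7, against 7.73 and 6.35 at day 3. Pcna, the sliding clamp, was 2.11-fold higher, and Chaf1b, a histone chaperone behind the fork, 2.5-fold. The origin recognition gene Orc4 differed the other way, at 7.71 at day 7 and 8.51 at day 3. Genes of homologous recombination and Fanconi repair showed a median of 0.49, and 1 of 17 passed 2-fold.

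Regulators of this programme differed less than its output. The list of E2F and DREAM regulators had a median of 0.15, which was -0.03 after housekeeping centring, and a single gene of 20 passed 2-fold. That gene was E2f8, itself made in S phase, with 7.10 at day 7 and 5.78 at day 3. Foxm1, an activator of mitotic genes, had 6.6 at day 7 and 5.94 at day 3. Rb1, the retinoblastoma protein that restrains E2F, had 7.94 at day 7 and 8.57 at day 3. Among CDK inhibitors, Cdkn3 and Cdkn2c were 2.17-fold and at least 2.06-fold higher, and neither reached 2-fold after housekeeping centring. Cdkn1a, the p21 inhibitor, had 10.48 at day 7 and 10.85 at day 3. Targets of p53 showed a median of -0.20 over 21 genes. The membrane protein gene Perp, at 6.08 at day 7 and 7.35 at day 3, was the one past 2-fold, and after housekeeping centring 4 were lower by that much.

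Taking cell division and replication as 1 group, 55 of 184 measured genes (29.9%) passed 2-fold upward at day 7, beside 2.14% of all measured genes. They made up 19.1% of all genes higher by that measure. Median levels of the mitotic kinase list were 6.52 in MEF, 5.57 at day 3, 6.69 at day 7 and 5.72 at day 14. For the spindle list they were 6.67 in MEF, 5.46 at day 3, 6.80 at day 7 and 5.46 at day 14. Over the whole group the day 7 array was the highest of the 6 arrays for 82 of 184 genes (44.6%) and the day 3 array the lowest for 52 (28.3%). Day 7 was highest for 15 of 24 mitotic kinase genes and 9 of 28 spindle genes, where it was highest for 12.4% of all measured genes and day 3 lowest for 18.9%. Mki67 had 9.31 in MEF, 7.24 at day 3, 8.85 at day 7 and 7.14 at day 14.

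**Figure D3:**
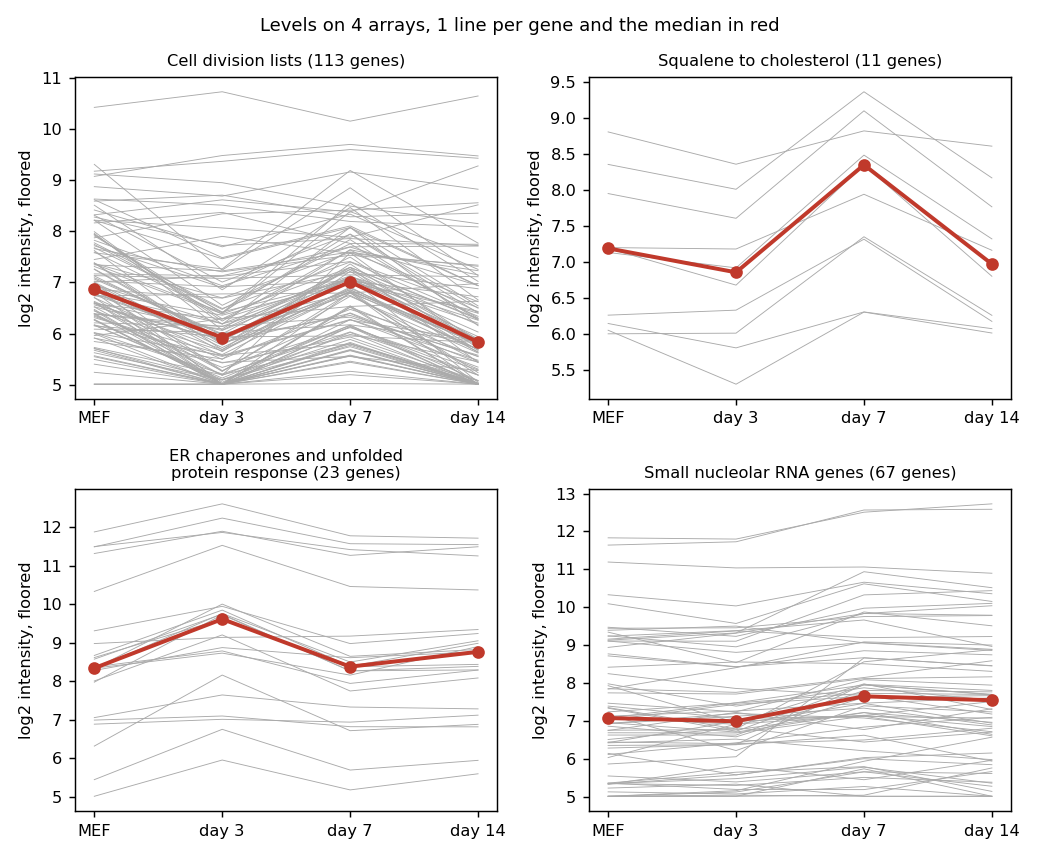
Log2 intensity (vertical axes, floor at 5.01) on the MEF, day 3, day 7 and day 14 arrays, 1 grey line per measured gene and the median in red, for 4 groups of genes. Over the medians, cell division and squalene-to-cholesterol genes are lower at days 3 and 14 than at day 7, ER chaperones are highest at day 3, and small nucleolar RNA genes are higher at days 7 and 14 than on the other arrays shown.

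Cells make cholesterol through the mevalonate pathway and a chain of enzymes that turns squalene into cholesterol. The transcription factor SREBP2 switches these genes on when membranes hold little sterol, and Insig1 holds SREBP2 back in the ER. All 11 measured genes of the squalene branch were higher at day 7 than at day 3, with a median log2 difference of 1.34. At least 2-fold higher were 6 of them, beside 2.14% of all measured genes. Fdft1, the squalene synthase, had 9.36 at day 7 and 8.01 at day 3. Downstream of it, Sqle had 8.37 at day 7 and 6.86 at day 3, and Lss, which closes the sterol rings, had 7.35 and 6.01. The demethylation enzymes Cyp51, Msmo1 and Nsdhl were 3.17-fold, 2.95-fold and 2.81-fold higher. Sc5d had the smallest difference of the 11, with 8.82 at day 7 and 8.36 at day 3.

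In the mevalonate branch Hmgcs1, the HMG-CoA synthase, had 10.02 at day 7 and 8.57 at day 3, and was the only one of 6 at least 2-fold higher. Ggps1, which leads away from sterols toward protein prenylation, had 8.10 at day 7 and 8.61 at day 3. Among control genes, Insig1 had 9.81 at day 7 and 7.86 at day 3 and was 3.87-fold higher. Srebf2, the gene of SREBP2, had 8.77 at day 7 and 7.79 at day 3, just short of 2-fold. Efflux genes and targets of the sterol sensor LXR had a median of 0.09, which was -0.08 after housekeeping centring, and 0 of 8 were 2-fold different. Of 12 fatty acid synthesis genes 3 passed 2-fold, and 2 after housekeeping centring. These were Scd1, a desaturase, with 10.52 at day 7 and 9.15 at day 3, the elongase gene Elovl6 with 8.44 and 7.12, and the desaturase gene Fads2 with 10.28 and 9.17.

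For 10 of the 11 squalene branch genes the day 7 array gave the highest of the 6 values. Their median level was 7.19 in MEF, 6.86 at day 3, 8.35 at day 7 and 6.97 at day 14. The promoter of Hmgcs1 is printed because it holds the sterol regulatory element searched, TCACNCCAC on either strand, in capitals at -137 to -129. It was the only one of 26 sterol promoters in the table to hold this string, which 1.2% of promoters of measured genes held, and 80.8% of the sterol promoters held CCAAT.
Hmgcs1 (chr13:119690101-119690400, plus strand): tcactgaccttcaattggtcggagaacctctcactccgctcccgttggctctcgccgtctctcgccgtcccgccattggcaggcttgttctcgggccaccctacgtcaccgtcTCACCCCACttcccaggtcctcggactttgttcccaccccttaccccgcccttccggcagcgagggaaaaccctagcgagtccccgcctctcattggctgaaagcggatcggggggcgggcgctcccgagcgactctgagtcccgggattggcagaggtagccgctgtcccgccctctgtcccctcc

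Txnip, an arrestin-like protein that limits glucose uptake and binds thioredoxin, had the largest difference of all named genes. It had 10.48 at day 7 and 5.19 at day 3. The day 3 value is close to the floor, so the log2 difference of 5.30 may understate it. Its levels were 11.75 in MEF, 5.19 at day 3, 10.48 at day 7 and 10.18 at day 14, so that the low value was that of the day 3 array. The sorted day 14 array gave 10.20 and the array labelled endogenous 10.37. MondoA and ChREBP switch Txnip on when glucose metabolites accumulate, through a carbohydrate response element. Other genes around it showed no such step. Arrdc4, the other classical MondoA target, had 9.01 at day 7 and 8.83 at day 3, and its relative Arrdc3 had 8.85 and 8.61. Mlxip, the gene of MondoA, had 7.71 at day 7 and 6.99 at day 3. Txnip was represented by 1 probe set.

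The promoter of Txnip is shown because the element can be seen in it. The search was for CACGNG and CNCGNG separated by 5 bases, and the capitals mark the match at -85 to -69. Among promoters of measured genes, 75 of 10428 (0.7%) held such a match. The element search was added after the data were seen.
Txnip (chr3:96557707-96558006, plus strand): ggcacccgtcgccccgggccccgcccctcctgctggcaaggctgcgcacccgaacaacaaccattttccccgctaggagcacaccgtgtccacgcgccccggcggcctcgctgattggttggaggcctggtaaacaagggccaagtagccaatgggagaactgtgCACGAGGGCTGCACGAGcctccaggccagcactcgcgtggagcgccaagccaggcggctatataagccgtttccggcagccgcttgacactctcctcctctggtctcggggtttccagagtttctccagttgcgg

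In glycolysis, a single gene of 20 passed 2-fold, and none did after housekeeping centring. That was Aldoc, an aldolase, with 6.67 at day 7 and 5.53 at day 3. The glucose transporter gene Slc2a1 had 10.28 at day 7 and 10.34 at day 3. Genes of the pentose phosphate pathway had a median of 0.28 and of the respiratory chain 0.10, the second of which was -0.08 after housekeeping centring, and in both lists 0 genes were 2-fold different. In the list of metallothioneins and hypoxia genes 4 of 14 passed 2-fold. This count was 0 after housekeeping centring and 3 when the probe sets of a gene were averaged. Adm, the gene of the vasodilator adrenomedullin, was 2.22-fold higher, Ndrg1 2.18-fold, the mitophagy receptor gene Bnip3 2.14-fold and the metal-binding Mt2 2.07-fold. Vegfa, another gene that hypoxia induces, had 9.55 at day 7 and 9.74 at day 3.

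The ER folds secreted proteins with chaperones such as BiP, the product of Hspa5. When unfolded proteins accumulate, the sensors ATF6, IRE1 and PERK start the unfolded protein response: ATF6 and XBP1 raise chaperone genes, and PERK acts through ATF4 and CHOP. Of 23 measured genes of ER chaperones and this response, 22 had a negative difference at day 7. By 2-fold or more 10 were lower and 0 higher, beside 0.87% and 2.14% of all measured genes. The median of the list was -0.84. Hspa5 had 8.39 at day 7 and 9.84 at day 3 and was 2.75-fold lower. Its co-chaperones Dnajb9, with 8.27 at day 7 and 9.74 at day 3, and Sdf2l1, with 6.71 and 8.16, were 2.77-fold and 2.72-fold lower. Hyou1, which exchanges the nucleotide of BiP, was 2.56-fold lower, with 8.64 at day 7.

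Folding enzymes and genes of ER-associated degradation were lower too. Creld2, a disulfide isomerase, had 8.27 at day 7 and 9.72 at day 3, and Pdia6, of the same kind, had 10.46 and 11.53. Herpud1, which recruits the degradation machinery, had 7.74 at day 7 and 9.20 at day 3. Dnajc3, an inhibitor of PERK, was 2.35-fold lower, at 8.38 at day 7 and 9.61 at day 3. The sensor and transcription factor genes differed less, with Xbp1 at 8.61 at day 7 and 8.87 at day 3, and Atf6 at 8.16 and 8.73. Array values as used here do not separate the spliced from the unspliced form of Xbp1. Derl1, a degradation channel, was the only gene of the list with a positive difference, at 9.17 at day 7 and 9.14 at day 3.

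Promoters of 4 of these genes are printed because they share the ER stress response element, where CCAAT and CCACG stand 9 bases apart and are read by NF-Y and ATF6. Capitals mark the whole element, which in Creld2 lies on the opposite strand. It begins at -65 in Hspa5, -126 in Creld2, -105 in Dnajc3 and -98 in Pdia6.
Hspa5 (chr2:34771840-34772139, plus strand): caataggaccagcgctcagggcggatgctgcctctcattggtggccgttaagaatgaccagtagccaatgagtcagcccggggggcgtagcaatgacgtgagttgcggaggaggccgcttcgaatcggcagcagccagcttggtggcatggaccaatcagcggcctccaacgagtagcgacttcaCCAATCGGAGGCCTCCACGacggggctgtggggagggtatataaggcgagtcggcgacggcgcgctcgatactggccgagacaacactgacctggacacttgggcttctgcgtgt
Creld2 (chr15:88819396-88819695, plus strand): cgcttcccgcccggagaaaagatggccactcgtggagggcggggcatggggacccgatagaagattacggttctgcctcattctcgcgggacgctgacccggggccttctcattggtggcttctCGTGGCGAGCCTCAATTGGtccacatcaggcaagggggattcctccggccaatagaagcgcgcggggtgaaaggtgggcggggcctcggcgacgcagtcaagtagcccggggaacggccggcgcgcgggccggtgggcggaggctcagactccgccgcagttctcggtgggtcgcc
Dnajc3 (chr14:118937682-118937981, plus strand): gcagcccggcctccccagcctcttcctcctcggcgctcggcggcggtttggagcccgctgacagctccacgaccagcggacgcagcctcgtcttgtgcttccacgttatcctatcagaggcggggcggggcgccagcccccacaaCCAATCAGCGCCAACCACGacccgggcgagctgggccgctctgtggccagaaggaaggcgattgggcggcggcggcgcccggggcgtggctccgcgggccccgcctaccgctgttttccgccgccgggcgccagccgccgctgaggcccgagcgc
Pdia6 (chr12:17266339-17266638, plus strand): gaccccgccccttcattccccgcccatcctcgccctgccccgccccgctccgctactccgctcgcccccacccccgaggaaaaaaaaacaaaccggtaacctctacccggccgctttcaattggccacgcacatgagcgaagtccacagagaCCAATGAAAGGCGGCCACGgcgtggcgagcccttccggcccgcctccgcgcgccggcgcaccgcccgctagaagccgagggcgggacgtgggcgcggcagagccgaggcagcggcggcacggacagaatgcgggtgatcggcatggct

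The element was present in 9 of 19 promoters of the list (47.4%), against 16 of 10428 promoters of measured genes (0.2%), 9 of which are these. Its holders were Calr, Canx, Creld2, Derl3, Dnajc3, Hsp90b1, Hspa5, Pdia6 and Syvn1. The 9 genes with the element had a median log2 difference of -0.83 and the 10 without one had -0.91, with 4 in each group at least 2-fold lower. Dnajb9, Sdf2l1 and Herpud1, among the genes with the largest differences, have promoters in the table but held no match in this window. The search was added after the data were seen.

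The branch of ATF4 and CHOP, which adjusts amino acid supply and can lead to cell death, was lower by less. Of 29 measured genes 27 had a negative difference, with a median of -0.56. At 2-fold, 2 were lower, and 5 after housekeeping centring. Ddit3, the gene of CHOP, had 6.83 at day 7 and 8.91 at day 3. The other was Wars, the transfer RNA synthetase of tryptophan and also an interferon-responsive gene, with 8.09 at day 7 and 9.39 at day 3. Trib3, a pseudokinase that CHOP induces, had 6.82 at day 7 and 7.65 at day 3, and Asns, the asparagine synthetase, had 8.69 and 9.01. Atf3 was at 6.22 at day 7 and 6.02 at day 3. The C/EBP-ATF composite site TTGCATCA was found in 5 of 26 promoters of the list (19.2%), those of Atf3, Chac1, Fgf21, Nupr1 and Slc7a11, against 0.6% of promoters of measured genes. The 5 with the site had a median of -0.57 with 0 lower by 2-fold, and the 21 without it had -0.56 with 1 lower.

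Cytosolic and mitochondrial heat shock proteins showed a median of -0.62. The mitochondrial chaperonin gene Hspd1 was the one of 11 past 2-fold, at 8.38 at day 7 and 9.39 at day 3. Targets of the oxidative stress regulator NRF2 had a median of -0.01 and 0 of 13 were 2-fold different. In the whole series the ER chaperone genes were highest on the day 3 array for 19 of 23 (82.6%), and the ATF4 and CHOP genes for 21 of 29 (72.4%), where day 3 was highest for 17.0% of all measured genes. The median level of the ER list was 8.34 in MEF, 9.61 at day 3, 8.38 at day 7 and 8.76 at day 14. For ATF4 and CHOP genes it was 7.28 in MEF, 7.86 at day 3, 7.28 at day 7 and 8.02 at day 14.

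**Figure D4:**
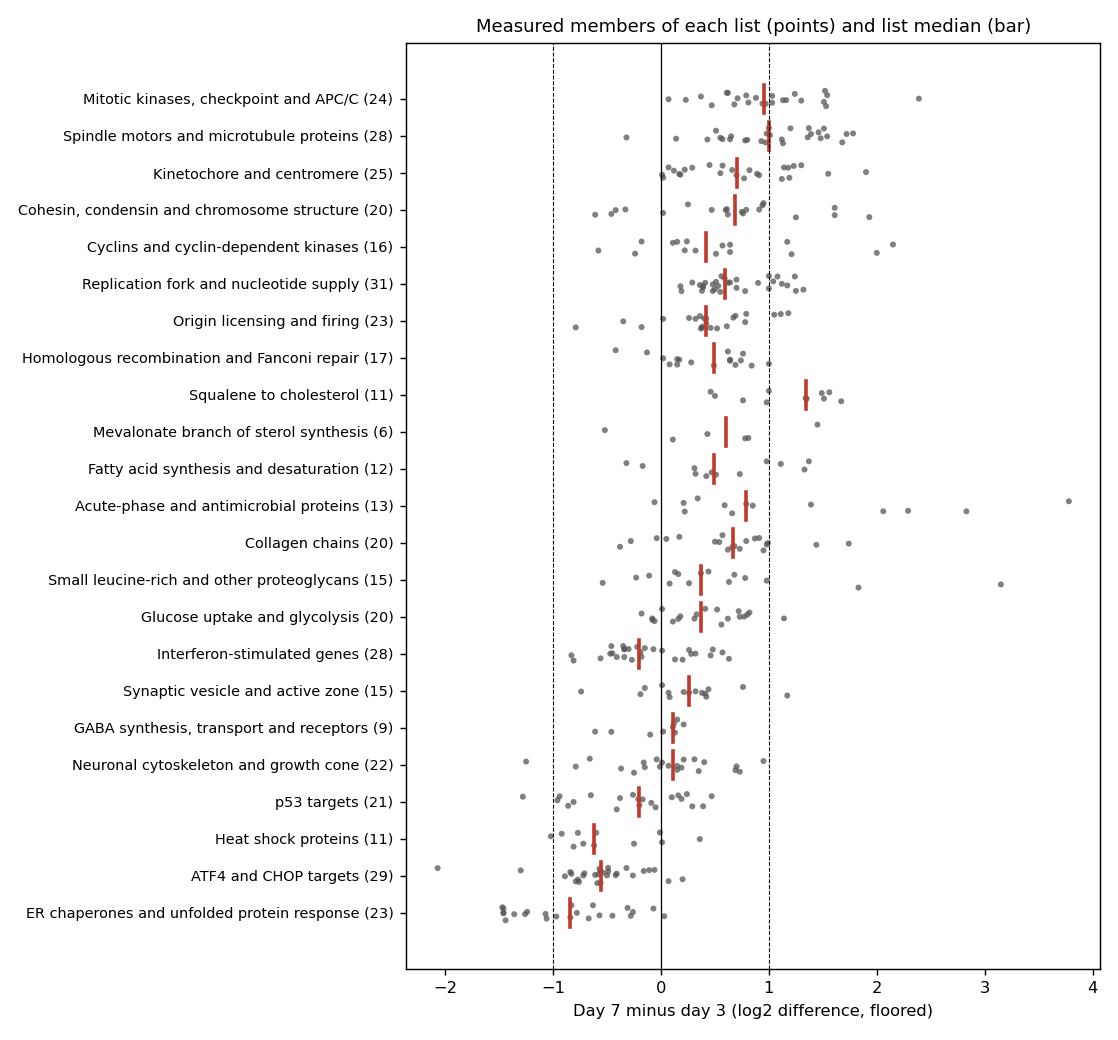
Day 7 minus day 3 log2 difference (horizontal axis) of each measured member (points) of 23 gene lists, with the number of members in brackets and the list median as a red bar. The dashed lines mark 2-fold in either direction. Cell division, replication and squalene-branch members lie almost all right of 0, ER chaperone and ATF4/CHOP members left of it, and the neuronal lists around it.

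Secreted defence proteins held several of the largest differences. Acute-phase proteins are released, mostly by the liver but also by stimulated fibroblasts, under cytokines such as interleukin 6. In that list 12 of 13 measured genes had a positive difference. Past 2-fold were 5 upward and 0 downward, beside 2.14% and 0.87% of all measured genes. Serpina3n, a protease inhibitor, had 10.67 at day 7 and 7.84 at day 3 and was 7.12-fold higher. Cfb, a complement factor, had 8.17 at day 7 and 5.87 at day 3, Hp, the haemoglobin scavenger haptoglobin, had 8.40 and 6.34, and Serping1, the inhibitor of complement C1, had 11.49 and 10.10. Reg3g, an antimicrobial lectin, was highest of the list by difference, at 9.12 at day 7 and 5.34 at day 3. Lcn2, the iron-scavenging lipocalin, and Saa3, a serum amyloid, were already bright at day 3, at 11.77 and 13.13 at day 7, against 10.99 and 12.54 at day 3.

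Among chemokines and cytokines 5 of 21 passed 2-fold upward and 0 downward, beside 2.14% and 0.87% of all measured genes. Cxcl14 had 10.77 at day 7 and 8.48 at day 3, Ccl9 had 7.82 and 6.12, and Ccl11, which attracts eosinophils, had 8.99 and 7.40. In MEF, Cxcl14 had 10.64, Ccl9 7.98 and Ccl11 8.06. Cxcl5, a neutrophil attractant, was 2.70-fold higher and the alarmin gene Il33 2.52-fold. Il6 differed the other way, with 7.84 at day 7 and 8.63 at day 3, as did Ccl5 with 6.79 and 7.53. Interferon-stimulated genes showed no 2-fold difference in 28 members, nor did genes of MHC class I presentation in 11.

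Macrophage markers moved in the same direction as these genes. Of 15 on the array 11 were measured and all 11 had a positive difference, and Cd14 and Lyz2 passed 2-fold. Their summed linear intensity was 961 at day 7 and 558 at day 3, beside 2274 in MEF and 1007 at day 14. Adgre1, the F4/80 antigen gene, had 5.66 at day 7 and 5.02 at day 3, Itgam had 6.01 and 5.07, Fcer1g had 6.73 and 5.80, and Csf1r had 5.70 and 5.14. Ptprc, Aif1, C1qc and Ctss were under the floor on both arrays. The part of macrophages in the difference of defence genes was not tested.

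Fibroblasts build matrix from collagens, proteoglycans and the enzymes that cut and crosslink them. Among 20 collagen chains, 17 had a positive difference and 2 passed 2-fold, with a median of 0.67. Col3a1, the chain of type III collagen, had 12.19 at day 7 and 10.45 at day 3, and Col4a1, of basement membranes, had 9.08 and 7.64. Col1a1 had 12.28 at day 7 and 11.41 at day 3, within 2-fold. The day 3 array was lowest of the 6 for 13 of the 20 chains. Of the 12 fibroblast markers 9 had a positive difference, and their part in the difference of matrix genes was not tested. The collagen median stood at 8.49 in MEF, 7.65 at day 3, 8.42 at day 7 and 8.32 at day 14.

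Of proteoglycans, 2 of 15 passed 2-fold. These were Prelp, which anchors basement membranes, at 9.53 at day 7 and 6.39 at day 3, and Aspn, which binds TGF-beta, at 10.44 and 8.61. In MEF, Prelp had 10.95 and Aspn 11.67, both above day 7. Decorin and lumican, the abundant members of the family, differed little, with Dcn at 13.01 at day 7 and 12.88 at day 3 and Lum at 10.10 and 10.21. Eln, the elastin gene, was at least 2.2-fold higher, with 6.15 at day 7 and a value at the floor at day 3, and short of 2-fold after housekeeping centring. The stromelysin gene Mmp3 had 9.32 at day 7 and 6.77 at day 3 and was 5.87-fold higher, with 10.64 in MEF. Timp1, an inhibitor of such proteases, was 3.24-fold higher, at 9.11 at day 7 and 7.42 at day 3.

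Of 18 Wnt pathway genes 3 passed 2-fold, all upward, and 2 when the probe sets of a gene were averaged. Sfrp2 and Sfrp1, decoys that bind Wnt proteins, had 9.77 and 11.68 at day 7, against 7.22 and 9.88 at day 3. Lgr5, a receptor of R-spondins, had 7.44 at day 7 and 6.00 at day 3. In MEF, Lgr5 had 9.81, above its day 7 level, and Sfrp2 and Sfrp1 had 9.27 and 10.59, below theirs. Axin2, a common readout of Wnt signalling, had 5.85 at day 7 and 5.88 at day 3. In the IGF axis 4 of 15 passed 2-fold upward, and 2 after housekeeping centring, beside 2.14% of all measured genes before it. Igfbp4, which binds insulin-like growth factors, had 10.20 at day 7 and 8.01 at day 3 and was 4.57-fold higher, and Igfbp2 was 2.73-fold, the growth factor gene Igf2 2.21-fold and Igfbp7 2.07-fold higher.

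TGF-beta and BMP response genes were split, 2 of 19 being higher by 2-fold and 2 lower. Tgfbi, a secreted adhesion protein, had 9.59 at day 7 and 7.84 at day 3, and the BMP antagonist gene Grem1 had 8.46 and 7.09. In MEF, Tgfbi had 9.81 and Grem1 9.66. Id1, an immediate target of BMP, had 7.33 at day 7 and 8.33 at day 3, and Skil, a feedback repressor of SMAD proteins, had 6.83 and 7.91. In the Notch list Hes1, a repressor that Notch induces, was the only one of 16 to differ 2-fold, at 6.56 at day 7 and 7.71 at day 3. The nuclear receptor genes Nr4a2 and Nr4a3 were 2.35-fold and 2.33-fold lower, the only members of 22 immediate early genes to differ 2-fold, while Fos had 5.48 on both arrays.

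Ankrd1, a target of YAP in stretched cells, had the largest negative difference of the named genes, at 9.69 at day 7 and 11.86 at day 3. The classical YAP targets Ccn1 and Ccn2 did not share it, with 11.08 and 9.46 at day 7, against 10.39 and 8.50 at day 3. Among mesenchymal transcription factors Twist2 was 3.14-fold lower, with 5.91 at day 7 and 7.56 at day 3, and Mkx, a regulator of tendon cells that was named for its own difference, was 2.99-fold lower with 5.59 and 7.17. Osr1 was 2.25-fold higher, at 9.93 at day 7 and 8.76 at day 3, with a log2 difference of 0.99 after housekeeping centring. Other genes among the 20 lowest were Acot2, a mitochondrial thioesterase, at 9.80 at day 7 and 11.53 at day 3, Arap2 at 5.49 and 7.26, and Spock3 at 5.65 and 7.28.

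Other genes among the 20 highest had varied roles. Prss35, a secreted protein of the serine protease family, had 8.61 at day 7 and 5.75 at day 3 and was 7.25-fold higher. Its level was 5.50 in MEF and 6.58 at day 14. Cyp2f2, a cytochrome of airway cells, had 9.75 at day 7 and 7.28 at day 3, and Chil1, a chitinase-like protein, had 7.72 and 5.31. Thy1, a surface glycoprotein of fibroblasts and also of neurons, was 5.05-fold higher, at 9.19 at day 7 and 6.86 at day 3. Apln, a peptide hormone gene of the vascular system, had 7.37 at day 7 and 5.27 at day 3, and the amine oxidase gene Aoc3 was at least 4.38-fold higher. The major urinary protein gene Mup3 had 8.54 at day 7 and was under the floor at day 3. Its family consists of near-identical copies, so its value is uncertain.

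Of 82 measured neuronal genes, 1 passed 2-fold upward and 2 downward, a share near the 3.01% of all measured genes, and the median was 0.02. Pvalb had 6.15 at day 7 and 5.76 at day 3, and Gad1, which makes GABA, had 5.12 and 5.01. Lhx6, a regulator of these interneurons, had 5.88 at day 7 and 5.91 at day 3. Calb2, the gene of calretinin, had 8.28 at day 7 and 8.09 at day 3, and the neuropeptide Y receptor gene Npy1r had 7.86 and 8.17. In MEF both were under the floor, Calb2 at 2.44 and Npy1r at 4.73. The neuropeptide gene Cck was 2.55-fold lower, with 8.71 at day 7 and 10.06 at day 3. Map1b, a microtubule protein of growing axons that many other cells make, was 2.38-fold lower at 8.91 at day 7 and 10.16 at day 3.

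The gene higher by 2-fold was Unc13a, which primes synaptic vesicles, with 6.39 at day 7 and 5.22 at day 3, and after housekeeping centring its log2 difference of 0.99 was short of that. Stmn2, a tubulin-binding protein of growth cones, had 7.81 at day 7 and 6.86 at day 3, just short of 2-fold. Gap43, another growth cone protein, had 6.89 at day 7 and 7.68 at day 3. Tubb3 and Map2 had 6.17 and 6.38 at day 7, against 5.86 and 6.23 at day 3. The GABA list had a median of 0.11, the cytoskeleton list 0.11 and the list of parvalbumin interneuron channels and net 0.02, and all 3 were negative after housekeeping centring. The list of synaptic vesicle and active zone genes had a median of 0.26, which was 0.09 after housekeeping centring. Of its 15 measured genes 12 had a positive difference and 3 a negative one. Rest, the repressor of neuronal genes, had 6.98 at day 7 and 7.09 at day 3. Hox genes, which keep the body position of fibroblasts, showed no 2-fold difference in 27 members.

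Small nucleolar RNA (snoRNA) genes, which guide the chemical modification of ribosomal RNA, were outside the rule that chose the named genes, and those named here were chosen after their values were seen. Of 67 measured, 55 had a positive difference, and the median was 0.41. At day 7, 12 were higher by 2-fold and 0 lower, beside 2.14% and 0.87% of all measured genes. After housekeeping centring 9 were higher and the median was 0.23, against -0.16 over all measured genes. Snord111 had 8.66 at day 7 and 6.05 at day 3, Snord1b had 8.56 and 6.79, and Snord104 had 10.94 and 9.32. Most such genes lie in introns of host genes, and a probe set for the snoRNA cannot tell its product from the host's unspliced transcript. MicroRNA genes did not share this, with 0 of 173 past 2-fold upward and 5 downward. The lower genes were Mir23b, Mir466h, Mir323, Mir1188 and Mir3095, and Mir23b had 5.66 at day 7 and 7.02 at day 3. Ribosomal protein genes had a median of 0.01, which was -0.13 after housekeeping centring, with 1 of 54 higher and 1 lower.

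The difference also varied with the genomic span of a gene, taken from RefSeq on GRCm38.p6. In 5 bins of 2487 or 2488 protein-coding genes, the median log2 difference was 0.092 in the shortest genes, then 0.054, 0.018 and -0.064, and -0.094 in the longest. In the shortest bin 69 genes passed 2-fold upward and 17 downward, and in the longest 31 were higher and 33 lower. The median span was 18.8 kb for 268 higher genes and 41.9 kb for 101 lower genes, against 23.4 kb for all 12439. Day 3 minus MEF medians of the same bins lay between 0.003 and 0.046, a comparison that shares the day 3 array. These bins were added after the data were seen.

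**Figure D5:**
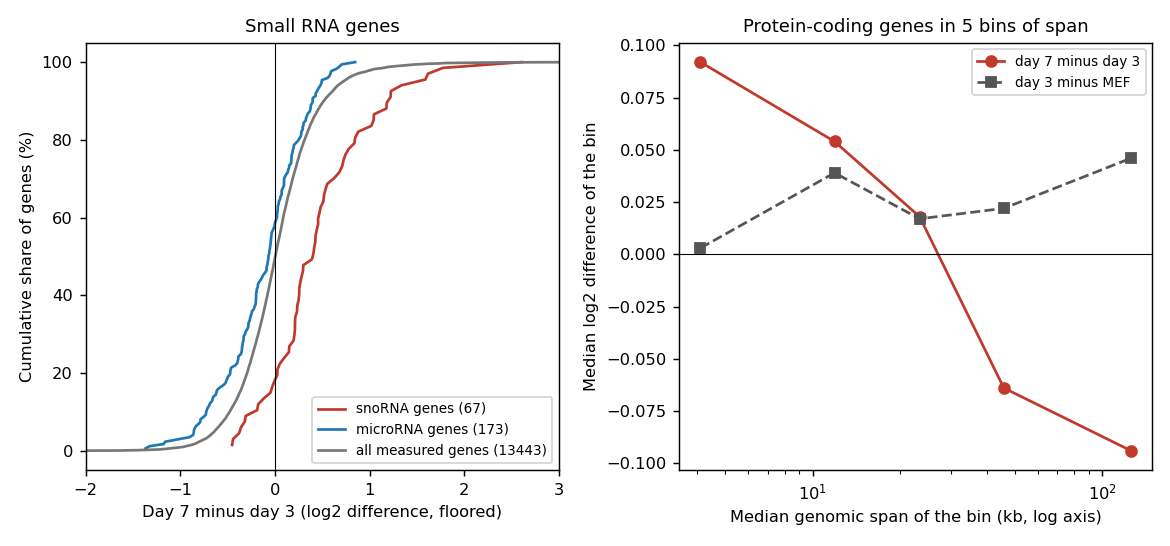
Left, cumulative share of genes (percent) by day 7 minus day 3 log2 difference for snoRNA genes, microRNA genes and all measured genes, with the snoRNA curve to the right of the others. Right, median log2 difference (vertical axis) of 5 bins of protein-coding genes by median genomic span (kb, log axis), which for day 7 minus day 3 is 0.092 in the bin of shortest genes and -0.094 in that of the longest.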

How the data were processed

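Total RNA of 6 samples was extracted with Trizol, labelled with biotin from 6 µg and hybridised to 1 Affymetrix array each, per the labels' protocols. The authors deposited a table of log2 values of 41345 probe sets, made with Affymetrix Expression Console per the submitters' processing notes. How probes were summarised and normalized, the version and the build were not given in the sources used here. Precision is limited by the number of arrays, 1 in each group.

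Of the probe sets, 5333 with an identifier number below the lowest annotated one were taken as controls and left out. No control label was used for this. Of the rest, 23521 had exactly 1 gene symbol in the platform annotation, 1814 had several and 10677 were unnamed here. Gene identifiers of 23328 named probe sets were found in a RefSeq table of GRCm38.p6, which changed 0 symbols. Of 22180 genes, 1082 had more than 1 probe set. The floor, the fold of 2 and the lists are described with the results. Control probe sets had a median log2 value of 4.43 at day 7 and 4.72 at day 3.

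The technical spread is the standard deviation, over genes, of the difference between the day 7 minus day 3 values of their 2 brightest probe sets, divided by the square root of 2. Both probe sets had to be above the floor on both arrays. Medians and counts of 50 gene lists and 12 marker lists used measured members. Promoters came from a RefSeq table of GRCm38.p6, 300 bases per gene, where the gene had one. The members, lists and tests were chosen with earlier results of these data known. The text gives a selection, made after values were seen, of genes named by a rule: the 20 largest differences in each direction with all probe sets in 1 direction, leaving out predicted, small RNA and chemosensory genes, up to 5 members of every list, and a preset list. Values given for further list members were chosen after they were seen. Quantile normalization, housekeeping centring, other floors, the mean of probe sets and other folds were tried. The counting was tested on simulated data, with 4-fold changes placed only in genes well above the floor. That test does not cover calls near 2-fold or near the floor. Scripts used Python 3.11.15, numpy 2.4.6, pandas 2.3.3 and matplotlib 3.10.9.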

Additional observations from a re-analysis of the deposited data

How the results depend on the processing

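As reported, 288 genes were higher at day 7 and 117 lower. Housekeeping centring gave 181 higher and 250 lower, a floor at percentile 75 gave 157 and 61, and no floor gave 401 and 313. A 4-fold threshold gave 23 and 2, and a 1.5-fold threshold 1092 and 870. Quantile normalization gave 302 and 125 and the mean of probe sets 277 and 118. The share of higher genes was 71.1%, against 42.0% after housekeeping centring, 56.2% with no floor, 92.0% at 4-fold and 55.7% at 1.5-fold. All 181 genes higher after housekeeping centring were among the 288, and all 117 lower genes remained among the 250. With the floor at percentile 75 the median of the spindle list was 0.59 and that of the mitotic kinase list 0.33, where many members lie under that floor of 6.58. Past 2-fold were then 3 of 16 measured spindle genes and 1 of 12 mitotic kinase genes. Of 50 gene lists, 39 had a positive median, and 12 of these turned negative after housekeeping centring, none with a median above 0.17 before it. The floor at percentile 75 turned 3 positive medians negative, up to the 0.26 of the synaptic list, which became -0.04 over 3 genes, and 2 negative ones positive. Quantile normalization turned 2 and 1, and the mean of probe sets 0 and 1. Of 124 named genes past 2-fold, 121 stayed past it with quantile normalization, 102 with housekeeping centring, 124 with no floor, 119 with the mean of probe sets and 80 with the higher floor. No paired analysis was possible because each group has 1 array. The floor stands in for detection calls, so low levels cannot be told from background.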

Other observations

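These lists were added after the data were seen, and some of their genes, such as Mt2 and Angptl4, also stand in lists of the report. Of 16 glucocorticoid-responsive genes 4 passed 2-fold upward at day 7 and 0 downward, beside 2.14% and 0.87% of all measured genes. The median log2 difference was 0.47. Within 2-fold, Fkbp5 differed by 0.47, Sgk1 by 0.24 and Tsc22d3 by 0.19, while Errfi1 and Dusp1 were lower, by -0.97 and -0.51. A glucocorticoid response was not tested. Cebpd, a transcription factor of acute-phase and fat cell genes, had 7.53 at day 7 and 6.01 at day 3, and Angptl4, an inhibitor of lipoprotein lipase, had 7.01 and 5.62. Of 16 circadian clock genes 1 was higher by 2-fold and 1 lower, and the median was 0.15. Per1, a repressor of the clock, was 2.48-fold higher, with 8.31 at day 7 and 7.00 at day 3. Arntl, the gene of the activator BMAL1, was 2.19-fold lower, with 7.38 at day 7 and 8.51 at day 3. All other clock genes stayed within 2-fold, among them Clock with a log2 difference of -0.82, Dbp with 0.55, Nr1d1 with 0.17 and Nr1d2 with 0.02. Each array is 1 harvest, and the hour of harvest is not given in the sources used here. Of 8 measured laminin chains, 0 were 2-fold higher and 2 lower, Lama1 at 5.75 at day 7 and 6.77 at day 3 and Lama2 at 7.84 and 8.86, while the basement membrane collagen Col4a1 was higher.

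Control probe sets outside all gene values were lower on the day 7 array. Of 2555 above the floor on at least 1 of the 2 arrays, 48 passed 2-fold upward and 284 downward at day 7, and their median difference was -0.285. Together these were 12.99%, against 3.07% of probe sets with 1 symbol above the floor. Among 4305 unnamed probe sets above the floor, 149 were higher and 142 lower, together 6.76%. Whether the lower control values bear on the genes called lower was not tested.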
